A study of Mus musculus with 16 samples.

Results

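The 10 genes described here encode parts of the contractile machinery of smooth muscle (Acta2, Myh11, Mylk, Lmod1, Cnn1, Smtn, Tagln and Des) and 2 proteins that mark pericytes (Pdgfrb and Rgs5). They were taken by symbol from the count tables, in which all 10 were found among 55359 gene identifiers, and all 10 passed the filter on low counts in both organs. RNA was sequenced from whole ovary and whole kidney of wild-type CBAF1 female mice aged 21 days. One group of each organ received PT-2385, an inhibitor of the hypoxia-inducible factor HIF-2α, at 7.5 mg/kg by intraperitoneal injection at 12 h intervals over 4 days, and the other received the vehicle, 5% DMSO in saline. All 4 groups also received gonadotrophins in that time, 5 IU PMSG and, after 48 h, 5 IU hCG, with tissue taken 13 h after hCG, so no group shows the organs without hormones. Each group had 4 libraries, and since nothing in the labels says that they came from separate animals, the p-values measure only the spread between these samples.

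Smooth muscle contracts when calcium and calmodulin activate myosin light chain kinase, which lets the motor myosin pull on filaments of smooth muscle actin. Thin-filament proteins such as calponin, smoothelin, transgelin and leiomodin bind, bundle or lengthen those filaments, and desmin ties them into the cell's scaffold. Pericytes are the contractile cells on capillaries, and many genes of both cell types are switched on by serum response factor (SRF) with its partner myocardin. In the ovary such cells lie in vessel walls and in the outer theca of follicles, whereas in the kidney they lie in arteries and arterioles, the glomerular mesangium and the wall of the renal pelvis. Perivascular cells with the PDGF receptor β are also known in the kidney as makers of erythropoietin, a process that HIF-2α drives.

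Between 12.7 and 43.3 M read pairs per library were assigned to genes (1 M is 1e+06), the fewest in kidney PT-2385 replicate 2 and the most in kidney PT-2385 replicate 3. Levels are given as CPM, counts per 1e+06 counts after scaling within the organ. The organs carried their own markers: the granulosa genes Foxl2 and Fshr had no count in any kidney library, and Foxl2 lay between 72.3 and 108 CPM in ovary. The proximal tubule gene Kap ranged over 11200 to 14100 CPM in the kidneys. Of the ovaries, 7 of 8 held no more than 0.783 CPM of it and vehicle replicate 1 held 32.5. In whole organs, fewer cells of a type and less RNA per cell cannot be told apart. The ovaries were extracted on Monarch columns but the kidneys in Trizol, so organ and extraction method cannot be told apart either.

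With vehicle alone, 9 of the 10 genes were higher in ovary than in kidney and Smtn was lower, and all 10 differences passed the test (edgeR quasi-likelihood test over 18923 genes, Benjamini-Hochberg adjusted p under 0.05). The background was high, since 81.6% of all genes tested were called in either direction and 40.9% were called higher in ovary. The median log2 difference of the 10 genes was 1.79, against 0.0023 over all genes. Cnn1, calponin of the thin filament, differed most, by 16.5-fold (log2 difference 4.04, SE 0.147). Acta2, smooth muscle α-actin, followed at 7-fold (2.81, SE 0.140) and Myh11, the smooth muscle myosin heavy chain, at 4.88-fold (2.29, SE 0.104). Desmin (Des) was 4.04-fold, Lmod1 3.80-fold and Tagln 3.15-fold higher. Mylk, the light chain kinase, was 1.83-fold higher, and the pericyte genes differed least, with 1.60-fold for Rgs5 and 1.35-fold for Pdgfrb. Smtn, smoothelin, stood at 0.578 of its kidney level in ovary (log2 difference −0.79, SE 0.0869, adjusted p = 1.78e-06, edgeR).

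Per kilobase of exon, the measure that allows genes to be compared with each other, Acta2 led in both organs. In vehicle ovary it held 447 ± 82.4 CPM per kilobase (mean ± SD, n = 4), and the next gene, Myh11, held 63.7 ± 9.19. Mylk, Cnn1, Des, Rgs5, Pdgfrb and Smtn then lay between 28.5 and 39.0 CPM per kilobase, and neighbours in that order had overlapping ranges. Lmod1 held 8.22 ± 1.60 and Tagln 3.64 ± 0.462. In vehicle kidney Acta2 held 55.1 ± 7.0 CPM per kilobase, Smtn came next with 42.6 ± 3.41, and the ranges of these genes did not overlap. Rgs5 (19.1), Pdgfrb (18.9) and Mylk (18.4) had overlapping ranges, as Cnn1 (1.93) and Lmod1 (1.87) did, with Myh11 at 11.3, Des at 7.72 and Tagln at 0.993 CPM per kilobase.

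**Figure D1:**
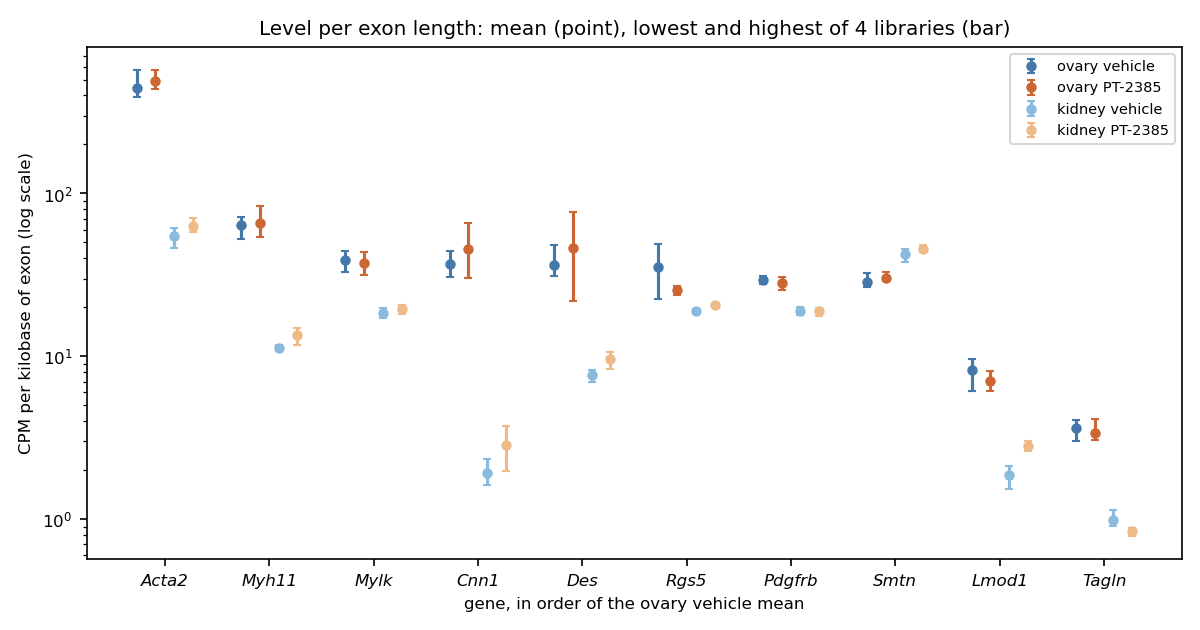
Level of each gene in CPM per kilobase of exon (log scale) in the 4 groups; points are means and bars run from the lowest to the highest of 4 libraries. Acta2 leads in both organs (447 in vehicle ovary, 55.1 in vehicle kidney), and Smtn is higher in kidney than in ovary.

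The measured level of Tagln, transgelin, is limited by its gene model, so its place in the order per kilobase is uncertain. Of its 1595 exon bases, 971 (60.9%) are shared with Pcsk7 and Gm48529 on the other strand, and the recorded counting command has no strand option, so read pairs in the shared stretch could not be given to one gene. The counts of Tagln per library ran from 148 to 215 in vehicle ovary and from 18 to 55 in kidney with PT-2385. The part of the shared bases in its low level was not tested. The other members share 14.3% (Smtn), 7.27% (Des), 6.88% (Mylk) or none of their exon bases with another gene.

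Promoters, taken from RefSeq as the 250 bases before to 50 after the start site (GRCm38.p6), were found for 7 of the 10 genes and not for Myh11, Tagln and Pdgfrb. They were searched for the CArG box, the site that SRF binds (CC, then 6 bases that are A or T, then GG, a form that reads alike on both strands), because it is the regulatory sequence most of these genes are known for. None of the 7 held it in this window, against 535 of 32851 promoters (1.63%). After that result a looser form was searched, in which at least 5 of the 6 central bases are A or T. Acta2 held 2 such stretches and the other 6 genes none, while 9.98% of all promoters held at least one. They begin 84 and 34 bases before the start site and stand in capitals in the Acta2 promoter, on the minus strand at chr19:34255324-34255623:
Acta2: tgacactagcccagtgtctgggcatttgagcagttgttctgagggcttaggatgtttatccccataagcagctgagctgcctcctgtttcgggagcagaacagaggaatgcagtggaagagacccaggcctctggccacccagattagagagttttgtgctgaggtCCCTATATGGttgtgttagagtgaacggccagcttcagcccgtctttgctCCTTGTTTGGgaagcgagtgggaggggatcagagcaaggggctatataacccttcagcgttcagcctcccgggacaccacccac

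The core of the site that HIF proteins bind (ACGTG or GCGTG, on either strand; the forms can overlap, and the matches found in these promoters did not) was searched as well, because PT-2385 acts on HIF-2α. It was present at 2 places each in Lmod1 and Cnn1, at 1 place each in Mylk and Smtn and nowhere in Des, Acta2 and Rgs5, and 43.8% of all promoters hold at least one. The promoter of Lmod1, leiomodin 1, is shown because it is the member that differed most in kidney. It lies on the plus strand at chr1:135324563-135324862, and its cores, in capitals, begin 204 and 153 bases before the start site:
Lmod1: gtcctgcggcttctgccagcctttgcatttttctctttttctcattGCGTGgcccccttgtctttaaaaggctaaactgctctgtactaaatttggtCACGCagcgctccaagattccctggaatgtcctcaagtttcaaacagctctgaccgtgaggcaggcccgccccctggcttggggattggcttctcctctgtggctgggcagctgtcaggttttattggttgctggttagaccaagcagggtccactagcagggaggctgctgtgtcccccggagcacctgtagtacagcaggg

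A match to these letters is a description of the window and does not show that a factor binds there.

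In kidney, 3 of the 10 genes rose with PT-2385: Lmod1, Des and Myh11. No member fell. Of all 17763 genes tested, 5.53% were called in either direction and 1.83% were called higher (edgeR quasi-likelihood test, adjusted p under 0.05). Unadjusted p was under 0.05 for 5 of the 10 members, all higher (edgeR). The number of all 17763 genes under 0.05 was not counted, but 4293 had 0.0552 or less (edgeR). The median log2 fold change of the 10 genes was 0.155, with 9 above 0, against 0.0066 over all genes, of which 51.5% were above 0. Because the members were chosen with earlier results of these data known, these comparisons with all genes are descriptions and not a test of the set.

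Lmod1, which nucleates actin filaments in smooth muscle (chr1:135252545-135295803, GRCm39), had the largest difference. Vehicle kidneys held 7.31, 6.07, 7.70 and 8.39 CPM (replicates 1 to 4) and PT-2385 kidneys 11.4, 10.9, 10.3 and 11.9. Every treated library lay above every vehicle library. The fitted difference was 1.51-fold (log2 fold change 0.59, SE 0.101, 95% interval 0.38 to 0.81, adjusted p = 0.00499, edgeR), the 83rd smallest p of all genes. It stayed called in all 8 fits that leave out 1 library, with adjusted p between 0.00393 and 0.0265. These levels rested on 139 to 451 read pairs in the treated and 163 to 223 in the vehicle libraries.

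Desmin, the muscle intermediate filament (Des, chr1:75336973-75345223), measured 21.1, 23.9, 23.5 and 25.0 CPM with vehicle and 25.3, 30.7, 27.4 and 32.4 with PT-2385. The groups did not overlap, but the lowest treated library was close to the highest vehicle library. The log2 fold change was 0.30 (SE 0.0788, adjusted p = 0.0357, edgeR). The call was lost without vehicle replicate 1 (adjusted p = 0.0637), vehicle replicate 2 (0.0792), or PT-2385 replicate 2 (0.0697), 3 (0.0757) or 4 (0.129), and the log2 fold change ran from 0.24 to 0.36 over the 8 such fits.

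Myh11, the motor itself (chr16:14012399-14109236), measured 71.1, 76.4, 78.0 and 72.4 CPM with vehicle and 87.5, 98.8, 77.9 and 93.1 with PT-2385. Treated replicate 3 lay within the vehicle range and the other treated libraries above it. The log2 fold change was 0.26 (SE 0.0641, adjusted p = 0.0298, edgeR). This call was lost without vehicle replicate 1 (adjusted p = 0.0587), 2 (0.0690) or 4 (0.0569) and without PT-2385 replicate 1 (0.0586), 2 (0.0656) or 4 (0.103).

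Calponin (Cnn1) had nearly as large a difference as Lmod1 but a wider spread. Vehicle kidneys held 5.26, 4.10, 5.91 and 4.22 CPM and treated kidneys 6.53, 9.42, 4.97 and 7.89, with replicate 3 inside the vehicle range. The log2 fold change of 0.52 (95% interval 0.13 to 0.92) missed the threshold (adjusted p = 0.109, edgeR) and passed it without PT-2385 replicate 3 (0.69, adjusted p = 0.0430). DESeq2 called it too (0.54, adjusted p = 0.0347). Acta2 measured 94.1, 108, 125 and 122 CPM with vehicle and 136, 143, 118 and 120 with PT-2385, so the groups overlapped (log2 fold change 0.20, adjusted p = 0.228, edgeR). Mylk, which switches the motor on, ran from 140 to 161 CPM with vehicle and from 148 to 168 with PT-2385 (log2 fold change 0.09, adjusted p = 0.343, edgeR). Smtn ran from 147 to 179 and from 170 to 189 CPM (0.10, adjusted p = 0.343, edgeR).

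Rgs5, a regulator of G protein signalling enriched in pericytes, was the steadiest member in kidney. It held 85.2, 88.4, 87.5 and 86.7 CPM with vehicle and 95.6, 91.9, 91.7 and 96.1 with PT-2385, so the groups did not overlap, yet the difference was 1.08-fold (log2 fold change 0.11, adjusted p = 0.141, edgeR). In Lmod1, Des and Rgs5 all treated libraries lay above all vehicle libraries, a pattern found in 5.37% of all genes. Tagln was the one member with all treated libraries below all vehicle libraries, as in 7.89% of all genes. Its values were 1.49, 1.82, 1.44 and 1.58 CPM with vehicle and 1.34, 1.41, 1.26 and 1.35 with PT-2385 (log2 fold change −0.26, adjusted p = 0.403, edgeR). Pdgfrb, the receptor through which endothelial cells recruit pericytes, measured 104 ± 5.84 and 104 ± 5.63 CPM (n = 4, log2 fold change 0.00, 95% interval −0.11 to 0.11, edgeR).

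**Figure D2:**
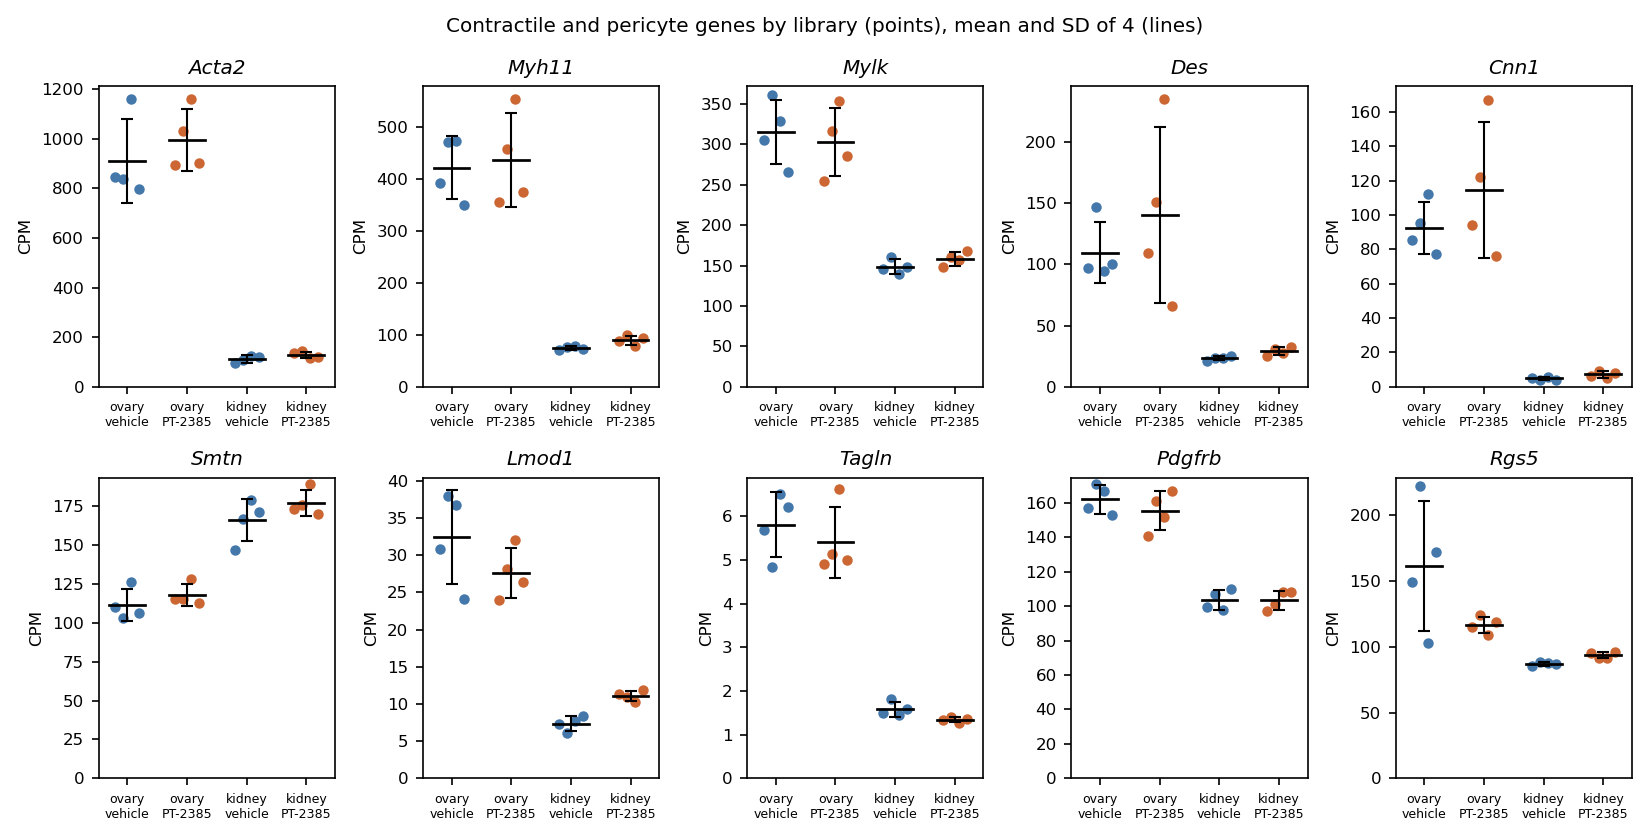
CPM of each gene in every library (points) with the mean and SD of 4 libraries (lines), for ovary and kidney with vehicle (blue) and PT-2385 (orange); each panel has its own axis from 0. In kidney, Lmod1 with PT-2385 (10.3 to 11.9 CPM) lies above vehicle (6.07 to 8.39), and in ovary the groups of every gene overlap.

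Genes of other cell types differed between the same kidney libraries. All 8 urothelium and ureter markers had log2 fold changes above 0, with 1 called (Psca) and 6 with unadjusted p under 0.05 (edgeR). Their summed level was 35.1 to 45.6 CPM with vehicle and 48.2 to 59.7 with PT-2385, without overlap. All 15 endothelial markers had log2 fold changes above 0, with 1 called (Cldn5) and 8 with unadjusted p under 0.05 (edgeR). Their sum was 1140 to 1220 and 1180 to 1340 CPM. Of 7 proximal tubule markers 6 had values below 0, with Cubn and Aqp1 called and 4 with unadjusted p under 0.05 (edgeR). The sum of the 7 was 20300 to 22500 and 18800 to 20800 CPM. Of all 17763 genes tested in kidney, 4293 had an unadjusted p of 0.0552 or less, and the number under 0.05 was not counted (edgeR). The sum of 5 nuclear long noncoding RNAs, which were read as a sign of RNA quality, was 3110 to 3390 CPM with vehicle and 3470 to 3610 with PT-2385, without overlap, with 4 of 5 above 0 and none called (2 had unadjusted p under 0.05, edgeR). All 5 tested mesangial and juxtaglomerular markers were above 0 (sum 351 to 388 and 379 to 415 CPM), as were all 8 adipocyte markers (50.4 to 113 and 51.4 to 226 CPM), and none of either list was called (1 in each had unadjusted p under 0.05, edgeR). Of 14 skeletal and cardiac muscle markers, 5 were tested and all 5 were above 0 with none called (1 had unadjusted p under 0.05, edgeR). Their sum over the 14 was 7.22 to 8.68 and 6.13 to 8.95 CPM, and Myh4 was at 0 in every kidney library.

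Actg2, the γ-actin of visceral smooth muscle such as that of the ureter, separated the treated kidneys from each other. It held 0.952, 1.49, 1.36 and 1.17 CPM with vehicle and 2.38, 9.18, 1.54 and 6.77 with PT-2385 (log2 fold change 1.88, SE 0.668, adjusted p = 0.159, edgeR; 1.99, adjusted p = 0.0142, DESeq2). Treated replicates 2 and 4, the highest for Actg2, were also the highest for Cnn1, Myh11 and Des. In an alternative added after the data had been seen, those 2 libraries were left out, so fewer treated libraries remained. Leaving out the libraries highest for Cnn1, Myh11 and Des lowers their differences by construction, so the fit is no test of a cause. Lmod1 then had a log2 fold change of 0.56 (adjusted p = 0.0622), Myh11 of 0.15 (0.284), Des of 0.17 (0.306) and Cnn1 of 0.23 (0.544), and no member was called, while 123 of 18255 genes were (edgeR). Ucp1, the uncoupling protein of brown fat, was 7.31 to 21.2 CPM with vehicle and 70.4, 32.2, 8.71 and 10 with PT-2385. Without treated replicates 1 and 2, also left out after the data had been seen, Lmod1 stayed called (0.59, adjusted p = 0.0305) and Myh11 (0.20, 0.160) and Des (0.35, 0.0506) did not. The part of other cell types in the kidney differences was not tested.

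**Figure D3:**
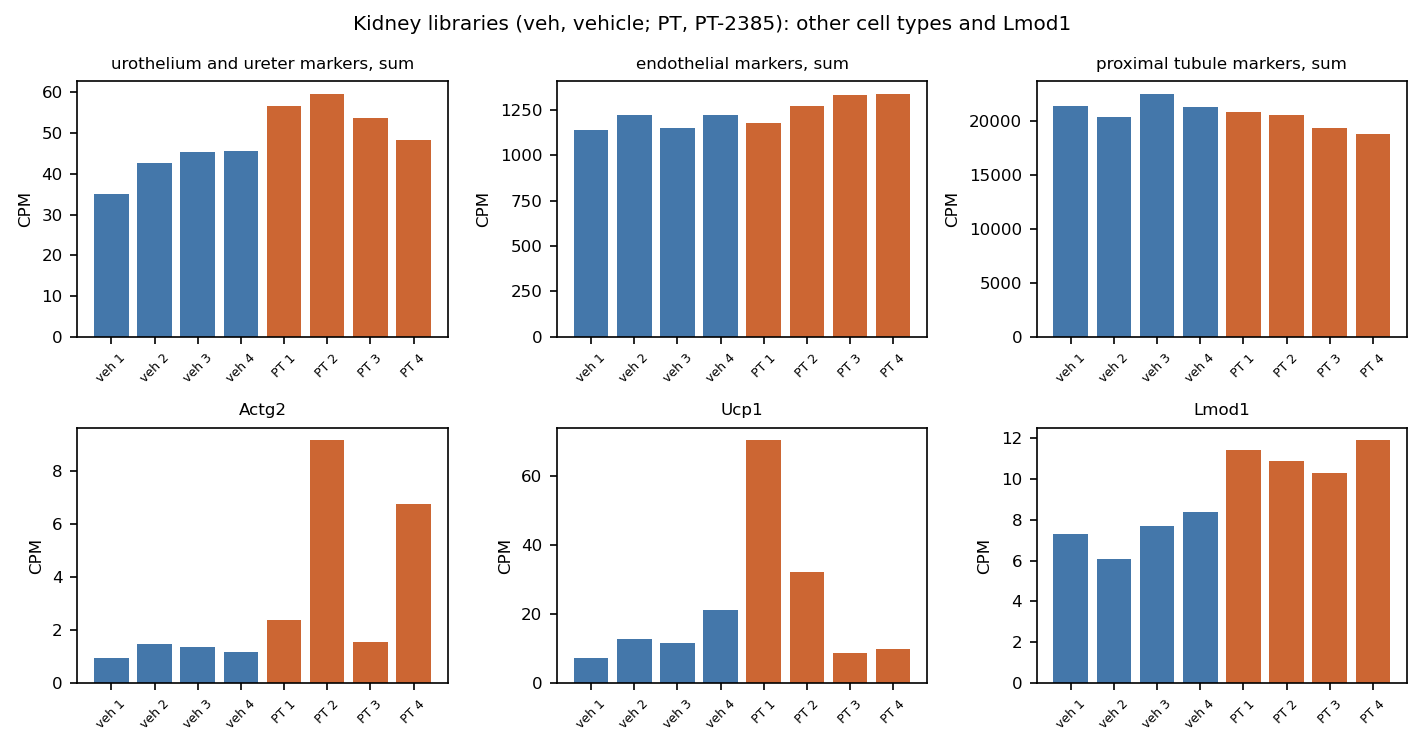
CPM in each kidney library (vehicle, blue; PT-2385, orange) for the summed urothelium, endothelial and proximal tubule markers and for Actg2, Ucp1 and Lmod1; bars start at 0. Actg2 is highest in treated replicates 2 and 4 and Ucp1 in treated replicate 1, whereas Lmod1 is between 10.3 and 11.9 CPM in all 4 treated kidneys.

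In ovary, none of the 10 genes was called with PT-2385 by edgeR, DESeq2 or limma-voom. Of 18125 genes tested, 0.0497% were called by edgeR, the main test. Only Rgs5 had an unadjusted p under 0.05, as 13.2% of all genes did. The members' median log2 fold change was −0.0054, with 5 of 10 above 0, against −0.0030 over all genes. No member had groups that did not overlap, a pattern that 6.95% of all genes showed.

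Rgs5 (chr1:169483070-169523382) held 149, 222, 103 and 172 CPM in vehicle ovaries and 115, 124, 109 and 119 in treated ovaries. The treated libraries lay close together (SD 6.27 CPM) and the vehicle libraries far apart (SD 49.7), with vehicle replicate 3 below every treated library. The log2 fold change was −0.47 (SE 0.193, 95% interval −0.90 to −0.03, unadjusted p = 0.0371, adjusted p = 0.350, edgeR). Without vehicle replicate 3 the log2 fold change was −0.63 and passed the threshold (adjusted p = 0.0251), in a fit that called 1090 of 18481 genes. Without vehicle replicate 2 it was −0.28 (adjusted p = 0.677).

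The same 2 vehicle ovaries stood at the ends for other RNAs. Tek, an endothelial receptor, held 32.9, 49.8, 26.0 and 38.0 CPM in vehicle replicates 1 to 4, the order of Rgs5, and Malat1, a long noncoding RNA kept in the nucleus, held 1350, 1900, 640 and 1420. Of 15 endothelial markers 14 had log2 fold changes below 0 in ovary and none was called (6 had unadjusted p under 0.05), and their sum was 1030 to 1330 CPM with vehicle and 961 to 1070 with PT-2385. The sum of 5 nuclear long noncoding RNAs was 1390 CPM in vehicle replicate 3 and 2380 to 3730 in the other 7 ovaries. Vehicle replicate 2 also held the most Ovgp1, an oviduct gene (26.1 CPM, against 3.01 or less in the others), and the most of the adipocyte gene Adipoq (4.14 CPM, against 0.916 or less). The part of these RNAs in the spread of Rgs5 was not tested.

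Treated replicate 3 was the highest of all ovaries for 6 members (Des, Cnn1, Myh11, Tagln, Smtn and, by a margin within rounding of the CPM, Acta2). Desmin held 97.0, 147, 94.8 and 100 CPM with vehicle and 109, 151, 235 and 66.0 with PT-2385, the widest spread of any member (log2 fold change 0.35, 95% interval −0.52 to 1.23, adjusted p = 0.731, edgeR). Without treated replicate 3 the log2 fold change of Des was −0.01. Cnn1 held 85.5, 95.2, 112 and 77.2 CPM with vehicle and 94.0, 122, 167 and 75.9 with PT-2385 (log2 fold change 0.31, adjusted p = 0.606, edgeR), and 0.08 without that library. Myh11 held 392, 470, 473 and 350 CPM and 356, 457, 554 and 374 (log2 fold change 0.05, adjusted p = 0.919, edgeR), and −0.08 without it. Tagln reached 6.62 and Smtn 128 CPM in the same library. Actg2 reached 311 CPM there, against 144 to 221 in the other ovaries.

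Acta2 measured 910 ± 168 CPM in vehicle and 998 ± 127 CPM in treated ovaries (n = 4, log2 fold change 0.13, 95% interval −0.15 to 0.41, edgeR), with 1160 CPM as the highest value in each group. Lmod1 held 30.9, 38.0, 36.8 and 24.1 CPM with vehicle and 24.0, 28.2, 32.0 and 26.4 with PT-2385 (log2 fold change −0.23, 95% interval −0.52 to 0.07, adjusted p = 0.493, edgeR). Mylk ran from 266 to 361 and from 255 to 353 CPM, and Pdgfrb from 153 to 171 and from 141 to 167, both with a log2 fold change of −0.06. Smtn ran from 103 to 126 and from 113 to 128 CPM (0.08), and Tagln from 4.83 to 6.51 and from 4.90 to 6.62 (−0.10). The ovary intervals are wide for some members, so that a change of the size seen for Des in kidney, 0.30, lies within those of Des, Cnn1, Myh11 and Acta2 in ovary.

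**Figure D4:**
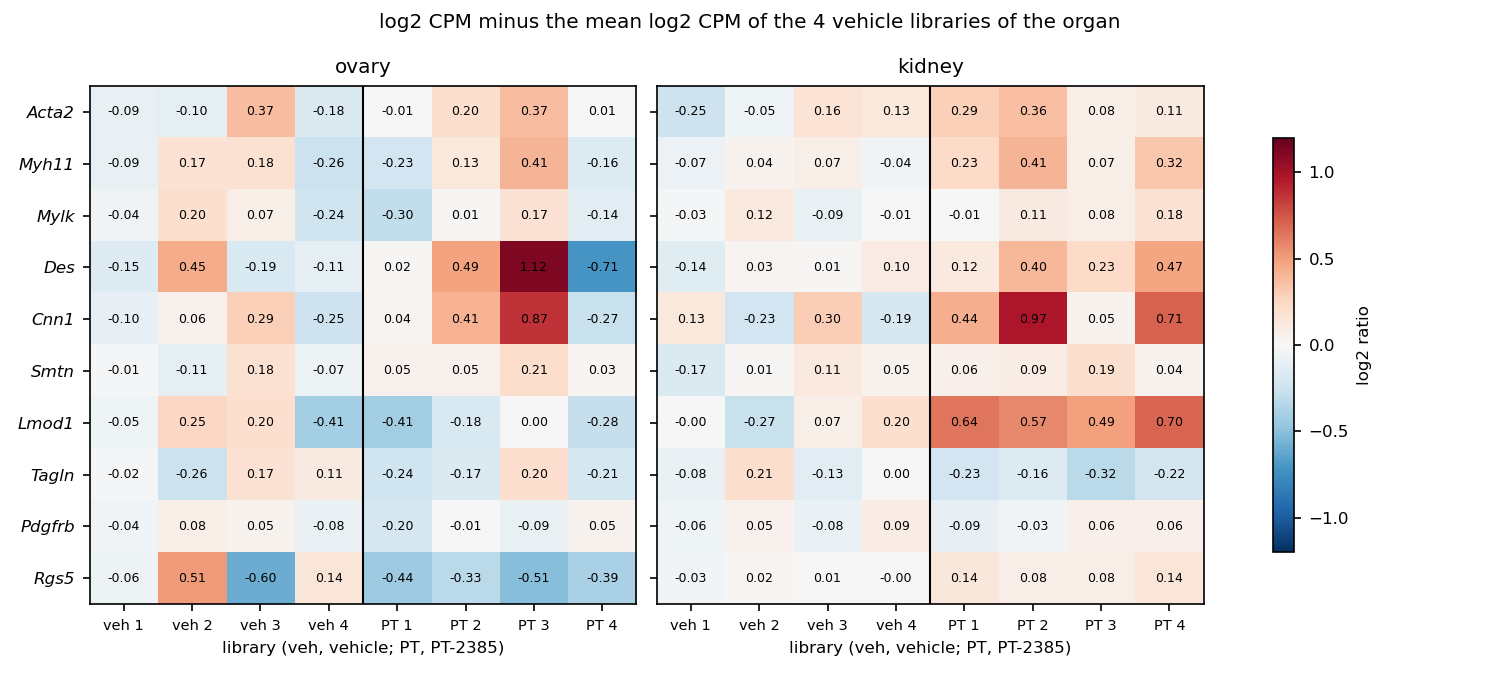
Each library's log2 CPM minus the mean log2 CPM of the 4 vehicle libraries of its organ, for the 10 genes; columns are libraries, and red is above and blue below the vehicle mean. Counted on rounded ratios, treated kidneys lie above the vehicle mean in 7, 8, 9 and 9 of 10 genes, and treated ovaries in 3, 6, 7 and 3. Lmod1 in treated ovary replicate 3 rounds to 0.0 and is not counted as above.

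Whether a member responded differently in the 2 organs was tested as an interaction in 1 fit of 16 libraries. No member passed (edgeR, adjusted p under 0.05), where 0.19% of 19977 genes did. Lmod1 and Rgs5 had unadjusted p under 0.05, as 12% of all genes did. The median difference of the 10 genes was −0.0883, with 3 above 0, against −0.0061 over all genes.

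Lmod1 came nearest, with a difference of log2 fold changes of −0.80 (SE 0.181, 95% interval −1.18 to −0.43, unadjusted p = 0.00024, adjusted p = 0.0695, edgeR), the 69th smallest p. DESeq2 called it (−0.81, adjusted p = 0.00776), and limma-voom did not (−0.79, adjusted p = 0.154). The edgeR test called it without ovary vehicle replicate 3 (−0.73, adjusted p = 0.0298) or 4 (−0.92, adjusted p = 0.0175). For Rgs5 the difference was −0.56 (SE 0.211, unadjusted p = 0.0186, adjusted p = 0.311, edgeR), and −0.72 without ovary vehicle replicate 3, where it was called (adjusted p = 0.00475). The other 8 members had differences between −0.19 (Myh11) and 0.17 (Tagln). Their intervals differ in width: Pdgfrb had −0.04 with an interval of −0.24 to 0.16, and Des had 0.07 with −0.86 to 1.00. Thus the rise of Des and Myh11 in kidney was not shown to differ from their response in ovary.

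**Figure D5:**
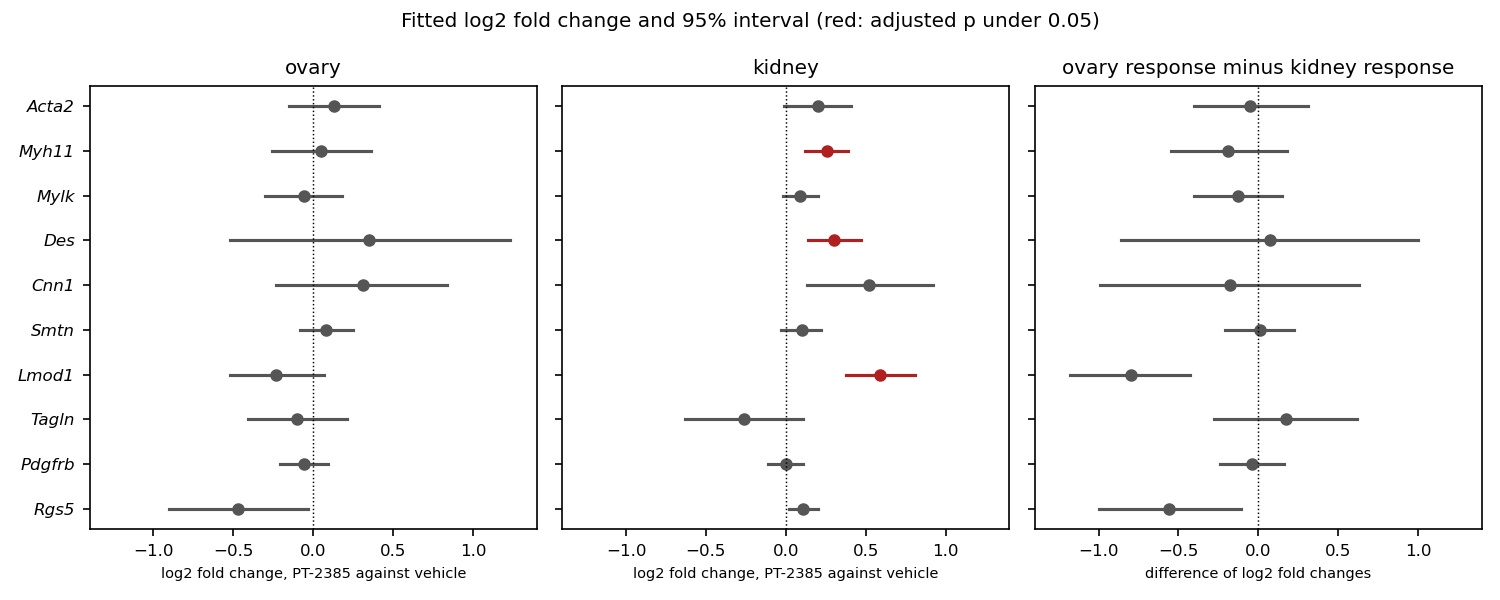
Fitted log2 fold change (point) and 95% interval (line) for PT-2385 against vehicle in ovary and in kidney and for the difference between organs; red marks adjusted p under 0.05. Lmod1, Des and Myh11 are red in kidney, and the interval of Lmod1 in the right panel runs from −1.18 to −0.43.

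Other genes of the same machinery were read from 7 lists chosen with earlier results of these data known. In kidney 9 of their 136 tested genes were called (6.62%), near the 5.53% of all genes, so the counts by list below are not a result about the lists. In the same kidney test, unadjusted p was under 0.05 for 41 of the 136 (30.1%, edgeR). Over all 17763 genes tested in kidney the number under 0.05 was not counted, and 4293 had 0.0552 or less (edgeR). The 30.1% is therefore given without a share over all genes at the same limit. There, 4 of 33 tested genes of the contractile apparatus and thin filament were called, with a list median log2 fold change of 0.118. Filip1l, a filamin-binding protein, rose by 0.40 and Pdlim7, an actin-linked PDZ and LIM protein, by 0.36 on the log2 scale, and both stayed called in all 8 fits without 1 library. Supervillin (Svil), which links actin and myosin to membranes, fell by 0.22, and its call was lost without vehicle replicate 2 or PT-2385 replicate 1, 3 or 4 (adjusted p up to 0.110). Tropomyosin 4 (Tpm4) had a log2 fold change of 0.16 (adjusted p = 0.0494) and was called in 0 of 8. In the RhoA and myosin phosphatase list 1 of 18 genes was called, the small GTPase Rhob, which held 71.8 to 73.7 CPM with vehicle and 82.9 to 106 with PT-2385 (log2 fold change 0.40, called in 8 of 8 such fits, but not with all libraries in 1 fit, adjusted p = 0.248). Ppp1r12c, a targeting subunit of the phosphatase, had 0.15 (adjusted p = 0.0710, edgeR).

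Among 23 regulators that act with SRF, myocardin or Notch, 1 was called in kidney, Tead4 (3.02 to 3.76 CPM with vehicle, 4.4 to 5.01 with PT-2385, log2 fold change 0.46, not called without vehicle replicate 2 or 3 or PT-2385 replicate 1, 3 or 4, adjusted p up to 0.133), and the Notch target Hey1 had 0.62 (adjusted p = 0.0682, edgeR). Myocd itself, which encodes myocardin, ran from 0.903 to 1.3 and from 0.951 to 1.41 CPM. Of 24 other pericyte and mural markers, Anpep fell by 0.26 (called in 8 of 8 fits without 1 library, but not with all libraries in 1 fit, adjusted p = 0.0513) and Tbx2 rose by 0.21 (not called without vehicle replicate 1, 2 or 4 or PT-2385 replicate 3 or 4, adjusted p up to 0.178). Of these 24 markers 15 had log2 fold changes above 0. Their sum, however, was 891 to 919 CPM with vehicle and 834 to 875 with PT-2385, without overlap. Such a sum weighs genes by their level, so a few abundant genes can set it, and their part was not tested. Anpep is also known from the brush border of the proximal tubule. Of the 7 proximal tubule markers, given above, 6 had log2 fold changes below 0, with Cubn and Aqp1 called. Their sum, which includes Kap at 11200 to 14100 CPM, overlapped between the groups. The part of these markers in the value of Anpep was not tested. Itpr1, a calcium release channel, was the 1 called gene of 23 channels and receptors and fell by 0.35 (not called without vehicle replicate 2, adjusted p = 0.0518, or PT-2385 replicate 3, 0.0602), and Orai1, a calcium entry channel, had −0.23 (adjusted p = 0.0737, edgeR). The channel and receptor sum, weighted in the same way, was 726 to 817 CPM with vehicle and 649 to 712 with PT-2385, without overlap. In that list 10 of 23 tested genes had log2 fold changes above 0, with a median of −0.0151. Apart from this list and the mural markers, the sums of the lists overlapped between the kidney groups. No PDGF ligand or receptor was called out of 6 (Pdgfc −0.20 and Pdgfra −0.23, both with unadjusted p under 0.05), and none of 9 RGS and G protein genes was (Gna13 −0.19, with unadjusted p under 0.05, and Gnaq −0.10).

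In ovary no gene of these 7 lists was called by edgeR, and 21 of 135 had an unadjusted p under 0.05 (15.6%, near the 13.2% of all genes). The list medians ran from −0.116 for the pericyte and mural markers, where 3 of 24 were above 0, to 0.126 for the PDGF genes. Synm, an intermediate filament protein that pairs with desmin, held 94.2 to 116 CPM with vehicle and 127 to 148 with PT-2385, without overlap (log2 fold change 0.35, adjusted p = 0.105, edgeR). Pdgfd, a ligand of the receptor that Pdgfrb encodes, held 45.8 to 60.3 and 58.9 to 71.9 CPM (0.41, adjusted p = 0.114), and Pdgfb had 0.14 (adjusted p = 0.426). Anpep had −0.35 (adjusted p = 0.143), Angpt1, the pericyte ligand of Tek, −0.80 (0.235), the endothelin receptor Ednrb −0.37 (0.207) and the prostaglandin receptor Ptgfr −1.13 (0.304). DESeq2 called Synm, Anpep, Angpt1 and Pdgfd of these, in a fit that called 2.17% of all genes. Without vehicle replicate 3, edgeR called Synm (0.35), Anpep (−0.39), Notch3 (−0.48) and Pdgfd (0.40), with adjusted p between 0.0270 and 0.0497. Other edgeR fits also called some of them. With all libraries in 1 fit these were Synm, Anpep, Angpt1, Pdgfd and Ednrb (adjusted p between 0.0118 and 0.0482), and with no filter Synm, Anpep, Pdgfd and Ednrb (0.00092 to 0.00826). The remaining genes named by the rule had log2 fold changes of −0.42 (Gucy1a1), −0.38 (Notch3), −0.28 (Gucy1b1), −0.25 (Mef2c), −0.23 (Nexn), −0.20 (Rgs10) and −0.14 (Rgs3), all short of the threshold.

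The members did not move as one. Over the 8 ovaries the Pearson correlation of log2 CPM between pairs of members ran from −0.889 (Rgs5 and Smtn, Spearman −0.952) to 0.935 (Acta2 and Smtn, Spearman 0.905). Over the 8 kidneys it ran from −0.836 (Lmod1 and Tagln, Spearman −0.762) to 0.906 (Myh11 and Cnn1, Spearman 0.833). These are descriptions over 8 libraries that share their groups, and the kidney values hold the difference between treatments. In ovary, the gene whose levels were most like the mean scaled level of the members was Hdgfl3 (Pearson 0.971, Spearman 0.976, and 0.976 without the 2 farthest libraries, n = 8, out of 11226 candidates). It was followed by Ppp1r12a, the main targeting subunit of myosin phosphatase (0.959, 0.952 and 0.946), the methionine sulfoxide reductase Msrb3 (0.948, 0.952 and 0.937), Strn3 (0.946, 0.857 and 0.901) and the LIM protein Fhl1 (0.945, 0.929 and 0.959). In kidney the most alike of 11249 were Zfp157 (0.979, 1 and 0.945), the annexin Anxa6 (0.967, 0.952 and 0.932), the kinase Map3k6 (0.965, 0.929 and 0.942), the malic enzyme Me3 (0.960, 0.905 and 0.885) and Vsig2 (0.960, 0.952 and 0.943), and none of these 5 stood in a list of contractile genes.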

How the data were processed

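Whole ovary and whole kidney RNA (4 libraries in each of 4 groups, grouped by the labels) was prepared with a stranded polyA kit, per the labels' protocols. The deposited unit is the count: whole read pairs assigned to each gene's exons (GENCODE vM27) by featureCounts 2.0.6, with neither a strand nor a multi-overlap option, per the file headers. The submitters' processing notes name FastQC, STAR and GRCm39, with tool versions not given in the sources used here. Symbols came from GENCODE M21 for 52083 of 55359 identifiers (94.1%), and gene coordinates from the same count tables (GRCm39). Genes with no symbol took 0.681% to 3.14% of a library's counts.

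Each organ was tested alone with edgeR 4.0.16 (robust quasi-likelihood test, R 4.3.3, limma 3.58.1) after TMM scaling and filterByExpr (count 10, total 15). The difference between organs was tested over 16 libraries and the vehicle organs over 8. P-values were adjusted by Benjamini-Hochberg over all genes tested. Alternatives were 2 other scalings, DESeq2 1.42.0, limma-voom, no filter, 1 CPM in 4 libraries, a replicate block, all libraries in 1 fit, each library left out, and the fit without 2 libraries whose file names deviate (ovary vehicle 3 by its number, kidney PT-2385 3 by its flow-cell code). Scripts were tested on simulated data. Figures used matplotlib 3.10.9 (Python 3.11.15).

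Members and lists were chosen with earlier results of these data known, and Myl12b was dropped from a list because its symbol has 2 identifiers. Genes named are the members, the 2 with the smallest p per contractile, mural, SRF, RhoA, channel, RGS and PDGF list and organ, every called one, and the 5 most alike per organ with at least 5 CPM (log2 CPM with prior count 2). Promoters with a CArG box were to be shown and none had one, so those of Acta2 and Lmod1 were chosen after values were seen, as was Actg2.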

Additional observations from a re-analysis of the deposited data

Results flagged for a closer look

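Within the groups of 4 libraries, 4 of 40 checks of a member found 1 library far from the other 3, and chance alone gives about 1 in 20. All 4 are in ovary. Des was 147 CPM in vehicle replicate 2, with the other vehicle ovaries between 94.8 and 100. Acta2 was 1160 CPM in vehicle replicate 3, with the others between 796 and 848. Smtn was 128 CPM and Tagln 6.62 CPM in PT-2385 replicate 3, with the others between 113 and 115 and between 4.90 and 5.13. Vehicle replicates 2 and 3 are also the highest and the lowest for Rgs5, and their part was not tested further.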

How the results depend on the processing

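The count of members called in ovary, 0, was 1 (Rgs5) without the library whose file name deviates, which is vehicle replicate 3, and ran from 0 to 1 over the fits without 1 library. In kidney the count of 3 was 5 with no filter (Acta2 and Cnn1 added) and 1 (Lmod1) with all libraries in 1 fit. It was 0 and 1 in the fits without both libraries highest in Actg2 or in Ucp1, and ran from 1 to 3 without 1 library. For the difference between organs the count of 0 was 1 with DESeq2 and 1 with no filter (Lmod1 in each), 1 without both libraries with deviating file names (Rgs5), and ran from 0 to 2 without 1 library. All 10 members stayed called between vehicle organs. The causes were not tested. Of the 9 list genes called in kidney, 6 were not called with all libraries in 1 fit (Tpm4, Svil, Rhob, Tead4, Anpep and Tbx2) and 6 without both libraries highest in Actg2 (Tpm4, Svil, Pdlim7, Tead4, Anpep and Tbx2).

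Direction turned in 36 fits of a member, in none of which it was called (lowest adjusted p 0.739). Pdgfrb in kidney had −0.00075 with median-ratio scaling, −0.00044 with DESeq2, −0.02 with all libraries in 1 fit and without the deviating library, and −0.01 without both libraries highest in Actg2. Between organs, Smtn had −0.02 with upper-quartile scaling, −0.0041 with no filter and −0.04 without both Actg2 libraries. Des had −0.05 with limma-voom, −0.04 with the replicate block and −0.01 without the deviating libraries, where Acta2 had 0.07 and Pdgfrb 0.01. Cnn1 had 0.10 without both Actg2 libraries. Over the fits without 1 library, the members that turned ran in ovary from −0.08 to 0.13 (Myh11), −0.01 to 0.59 (Des) and −0.14 to 0.01 (Mylk), and in kidney from −0.03 to 0.03 (Pdgfrb). Between organs they ran from −0.33 to 0.31 (Des), −0.17 to 0.10 (Acta2), −0.07 to 0.08 (Smtn) and −0.08 to 0.01 (Pdgfrb).

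Replicate numbers are shared between groups, but do not pair the libraries by the labels. Correlations of same-numbered libraries ran from −0.253 to 0.346 in ovary and from −0.081 to 0.0955 in kidney, and 4 of 8 libraries in each correlated best with their own number, as 6 of 8 did between vehicle organs and 6 of 8 between treated organs (−0.0344 to 0.0823). With the replicate block 0 members were called in ovary, 3 in kidney, 0 between organs and 10 between vehicle organs, as without it, while the calls over all genes went from 9 to 395 in ovary, from 982 to 1274 in kidney and from 38 to 20 between organs. Among the other genes named, the block added the calls of Angpt1 (adjusted p = 0.00199), Ednrb (0.0156), Synm (0.0221) and Notch3 (0.0290) in ovary and ended that of Tpm4 (0.0528) in kidney (edgeR).

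Over all genes, the ovary count of 9 was 324 with DESeq2, 3 with limma-voom, 330 with no filter, 325 with all libraries in 1 fit and 1090 without vehicle replicate 3. The kidney count of 982 was 1761 with no filter and 286 with all libraries in 1 fit, and ran from 240 (without PT-2385 replicate 3) to 1370 over the fits without 1 library. Depth limits Tagln most, with 18 read pairs in its shallowest library.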
